A study of Rattus norvegicus with 17 samples.

Results

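The translation initiation factors (eIFs) were followed through all 17 arrays of middle cerebral arteries (MCAs) from female rats. Members were chosen by name, as the probe sets with a single gene symbol that begins with Eif and a digit between 1 and 6, leaving out the eIF2 kinases (Eif2ak). The rule found 51 probe sets for 49 genes among the 13197 genes tested. Every member had a value on every array, and for Eif4g1, the member with several probe sets, the brightest was used. In 3 of the 49 genes the name went against the label, because Eif2c1, Eif2c2 and Eif2c3 are older symbols of the Argonaute genes Ago1, Ago2 and Ago3, which bind small RNAs. These 3 are described separately, which leaves 46 initiation factor genes. Eif2b3, Eif4a3, Eif6 and Eif2s3y were not analysed here.

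Translation begins when the small ribosomal subunit, loaded with the initiator methionyl-tRNA by eIF2, is brought to the 5' cap of an mRNA and scans to the start codon. eIF4E binds the cap, eIF4A unwinds the leader and eIF4G holds them together, while eIF3 joins this assembly to the ribosome. eIF2B recharges eIF2 with GTP, and the eIF4E-binding proteins (4E-BPs) hold eIF4E away from eIF4G until the kinase mTORC1 phosphorylates them. In ischemic brain, reperfusion is known for phosphorylation of eIF2 alpha and a fall in protein synthesis. The arrays measured mRNA and neither phosphorylation nor translation.

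The study asked which genes changed in the artery itself after a focal stroke. Occluded MCAs (5 arrays) were the right arteries of female Wistar rats in which a filament, inserted under isoflurane, had blocked the MCA. The rats woke during the occlusion and were anesthetized again for removal of the filament. These arteries were taken 3 h after reperfusion. Non-occluded MCAs (6 arrays) were the left arteries of such operated rats, and both arteries came from 5 rats (F8, F10, F12, F15 and F33). Control MCAs (6 arrays) came from healthy rats that were not operated. All rats weighed about 250 g, and none was in proestrus. No group was sham-operated, so against control the occlusion and the surgery with its anesthesia cannot be told apart. Between the arteries of a rat, the occlusion cannot be told apart from the side or from the carotid ligation made to insert the filament.

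Values are log2 expression values after robust multi-array averaging, which sets all arrays to a common distribution, so that a change of most genes in one direction would not be visible. The array medians lay between 7.36 and 7.49. Differences are log2 fold changes with their standard errors (SE) from limma, and a gene with a Benjamini-Hochberg adjusted p under 0.05 is called higher or lower. Of the smooth muscle markers, Myh11 and Tagln were bright, with medians of 12.79 and 13.16 in occluded MCAs and 12.95 and 13.27 in control MCAs. Each artery was measured whole, so fewer cells of a type and less RNA per cell cannot be told apart.

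In the occluded MCAs, most of the initiation factors had an increased expression compared with the control MCAs. Of 46 genes, 28 were higher, 4 were lower and 14 did not pass the test, while over all 13197 genes 42.1% were called, 19.2% higher and 22.9% lower. The median log2 fold change of the 46 genes was 0.25, beside -0.02 over all genes. The groups did not overlap in 22 genes that were higher and 2 that were lower, against 12.6% of all genes in each direction. The number of higher genes lay between 25 and 28 with any 1 of the 17 arrays left out, and was 13 with SAM (significance analysis of microarrays, the test of the study) at a q of 0. With SAM none of the 4 lower genes was called, and over all genes it called 8.11% higher and 6.56% lower.

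The increases were moderate for most genes and exceeded 2-fold in 3 of them. These 3 were Eif1a, which encodes a form of the scanning factor eIF1A, Eif4a1, which encodes the helicase eIF4A, and Eif4ebp1, which encodes the repressor 4E-BP1. The 4 lower genes were Eif3f, Eif4b, Eif4e3 and Eif4ebp2. In the non-occluded MCAs Eif1a and Eif4ebp1 were called against control, both higher. They made up 4.35% of the 46 genes, beside 3.91% of all genes called in this comparison (1.79% higher).

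Markers of other cell types also differed between the groups. The astrocyte markers Gfap, Aqp4 and Slc1a2 had log2 fold changes of 2.46, 1.31 and 0.70 in occluded over control MCAs, of which Gfap was called (1 of 3). Gfap was also called higher in non-occluded over control MCAs (1.03, adjusted p = 0.0449 from limma), the comparison in which Eif1a and Eif4ebp1 were called. The mean level of the 3 markers per array ranged from 6.65 to 8.82 in occluded, 6.34 to 7.49 in non-occluded and 5.72 to 7.27 in control MCAs. Of 3 neuron markers, all of them dim, 2 were higher, and the mean level of the 3 ranged from 5.57 to 6.12 in occluded MCAs and 5.43 to 5.64 in control MCAs. Of 4 endothelial markers, Cldn5 (-0.98) and Tek (-1.12) were lower, and the mean level of the 4 ranged from 9.42 to 10.72 in occluded MCAs and 10.49 to 10.72 in control MCAs. Of 3 smooth muscle markers, Myh11 (-0.16) and Smtn (-0.68) were lower, and the mean level of the 3 ranged from 12.12 to 12.35 in occluded MCAs and 12.36 to 12.69 in control MCAs. Of 4 fibroblast markers Col1a1 was lower (-0.39) and of 4 microglia and macrophage markers Cx3cr1 was lower (-0.79), with mean levels of 10.86 to 11.18 and 6.68 to 7.39 in occluded MCAs against 10.97 to 11.20 and 7.05 to 7.72 in control MCAs. Of 4 listed neutrophil markers only S100a9 was measured here, and it was dim. Its means were 6.17 in occluded, 5.85 in non-occluded and 4.68 in control MCAs. S100a9 had a log2 fold change of 1.49 in occluded and 1.17 in non-occluded over control MCAs, both called. The part of these cells in the results on the initiation factors was not tested.

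**Figure D1:**
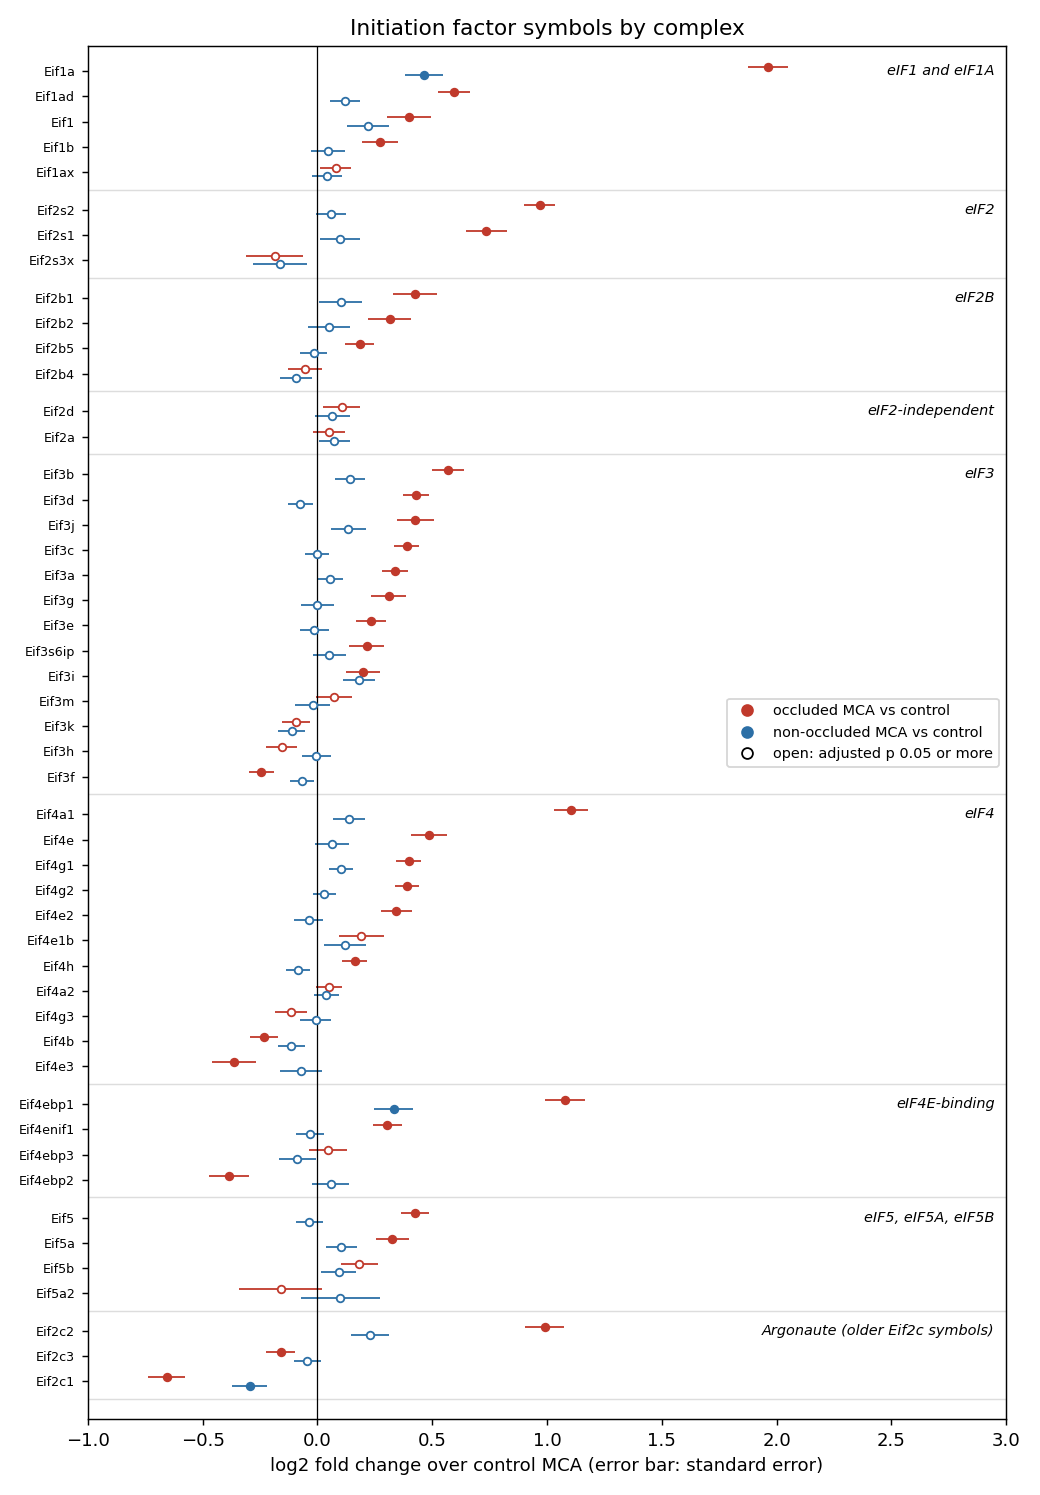
Log2 fold change over control MCAs of the 49 genes, grouped by complex, for occluded MCAs (red, upper) and non-occluded MCAs (blue, lower), with standard errors and filled points for an adjusted p under 0.05. The red points lie to the right of 0 in most complexes with Eif1a farthest at 1.96. Of the blue points, Eif1a (0.47), Eif4ebp1 (0.33) and Eif2c1 (-0.29) were called and lie farthest from 0. Eif2c2 (0.23) and Eif1 (0.22) come next and were not called.

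eIF1 and eIF1A bind the small ribosomal subunit and keep it open for scanning until the start codon is found. Of their 5 genes, 4 were higher in occluded than in control MCAs, beside 19.2% of all genes. The median log2 fold change of the 5 genes was 0.40. Eif1a had values of 9.99, 10.33, 10.26, 10.48 and 10.32 in the occluded MCAs of rats F12, F10, F8, F15 and F33, against 8.12 to 8.43 (median 8.32) in control MCAs. All 5 occluded arrays lay well above the control arrays, and the lowest of them was rat F12. The log2 fold change of 1.96 (SE 0.09, 3.90-fold, adjusted p = 2.24e-11 from limma) was the largest of all 49 members. Eif1a is an autosomal gene (chromosome 18 in the array annotation), and Eif1ax is its X-linked counterpart. Eif1ax had values of 9.08 to 9.19 (median 9.14) in occluded MCAs and 8.89 to 9.25 (median 9.07) in control MCAs, so its groups overlapped (log2 fold change 0.08, SE 0.07, adjusted p = 0.385 from limma). The difference between the changes of the 2 genes was not tested, and probes of such close copies may take up some of each other's RNA.

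Eif1ad, which encodes a protein with an eIF1A domain, had values of 7.42, 7.58, 7.55, 7.68 and 7.77 in the occluded MCAs, in the same order of rats, against 6.85 to 7.22 (median 6.99) in control MCAs. The 2 groups were separate (log2 fold change 0.59, SE 0.07, adjusted p = 2.23e-06 from limma). Eif1 and Eif1b, both of which encode eIF1 proteins, were called with smaller log2 fold changes of 0.40 (SE 0.10) and 0.27 (SE 0.08) and with groups that overlapped. Neither was called by SAM.

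eIF2 is a trimer that carries the initiator tRNA, with an alpha subunit (Eif2s1) whose phosphorylation slows initiation, a beta subunit (Eif2s2) and a GTP-binding gamma subunit (Eif2s3x). The alpha and beta subunit genes were higher in occluded MCAs and the gamma subunit gene was not called. Eif2s2 had values of 10.12, 10.45, 10.32, 10.33 and 10.15 in the occluded MCAs of rats F12, F10, F8, F15 and F33, against 9.17 to 9.43 (median 9.29) in control MCAs. Eif2s1 had values of 9.03, 9.32, 9.22, 9.51 and 9.36 in these occluded MCAs, against 8.40 to 8.79 (median 8.54) in control MCAs. Both genes separated the groups completely, and rat F12 again had the lowest occluded value. The log2 fold change was 0.97 for Eif2s2 (SE 0.07, 1.96-fold, adjusted p = 7.62e-09 from limma) and 0.73 for Eif2s1 (SE 0.09, 1.66-fold, adjusted p = 3.57e-06 from limma). Eif2s3x had values of 10.04 to 10.66 (median 10.45) in occluded MCAs and 10.37 to 10.83 (median 10.63) in control MCAs (log2 fold change -0.19, SE 0.12, adjusted p = 0.253 from limma). Its groups overlapped, and its SE was the largest of the 3.

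Eif2a and Eif2d encode factors that can bring initiator tRNA to the ribosome without the GTP cycle of eIF2. Neither was called, with log2 fold changes of 0.05 (SE 0.07) for Eif2a and 0.10 (SE 0.08) for Eif2d.

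eIF2B is the exchange factor that recharges eIF2 with GTP and is blocked by phosphorylated eIF2. Of 4 measured subunit genes, 3 were higher in occluded than in control MCAs, beside 19.2% of all genes. These 3 had log2 fold changes of 0.18 to 0.43. The alpha subunit gene Eif2b1 had values of 8.09, 8.27, 8.19, 8.34 and 8.43 in the occluded MCAs of rats F12, F10, F8, F15 and F33, against 7.48 to 8.03 (median 7.89) in control MCAs. The groups did not overlap, although the lowest occluded value was only slightly above the highest control value (log2 fold change 0.43, SE 0.10, adjusted p = 0.00183 from limma). The beta subunit gene Eif2b2 had a log2 fold change of 0.31 (SE 0.10) and Eif2b5, for the catalytic epsilon subunit, one of 0.18 (SE 0.06), with overlapping groups in both. Eif2b4, for the delta subunit, was at -0.05 (SE 0.07) and was not called. None of the 3 increases was called by SAM, and that of Eif2b5 was also lost without control rat F16 and without the occluded MCA of rat F10 or F15 (adjusted p = 0.0563 to 0.0831 from limma).

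**Figure D2:**
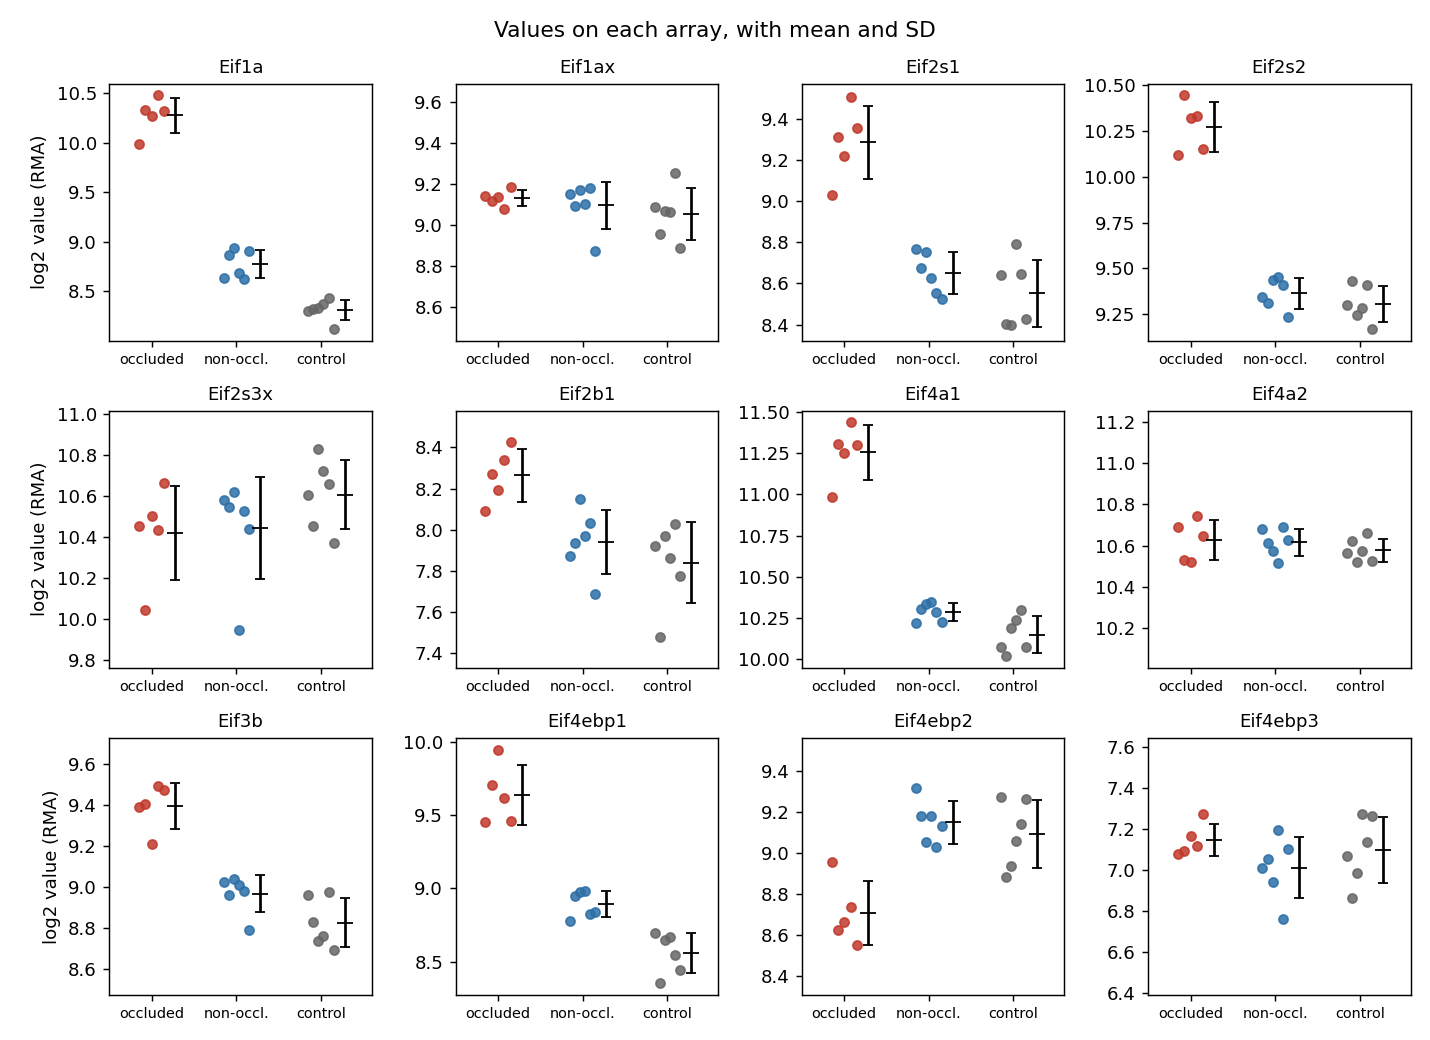
Log2 value on each array (points) with mean and standard deviation (black) for 12 genes, in occluded (red, n = 5), non-occluded (blue, n = 6) and control MCAs (gray, n = 6). Every occluded array of Eif1a, Eif2s1, Eif2s2, Eif4a1, Eif3b and Eif4ebp1 lies above all other arrays, those of Eif4ebp2 lie below all non-occluded arrays, and the groups of Eif1ax, Eif2s3x, Eif4a2 and Eif4ebp3 overlap.

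eIF3 is the largest initiation factor and links the mRNA-bound eIF4G to the small ribosomal subunit. Of its 13 measured subunit genes, 9 were higher in occluded than in control MCAs, 1 was lower and 3 were not called. Over all genes 19.2% were higher and 22.9% lower. The median log2 fold change of the 13 genes was 0.23. Eif3b, a core subunit, had values of 9.39, 9.40, 9.21, 9.49 and 9.47 in the occluded MCAs of rats F12, F10, F8, F15 and F33, against 8.70 to 8.98 (median 8.80) in control MCAs. All occluded values were above all control values (log2 fold change 0.57, SE 0.07, 1.48-fold, adjusted p = 3.90e-06 from limma).

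The other core subunit genes Eif3a and Eif3c had log2 fold changes of 0.34 (SE 0.06) and 0.39 (SE 0.06). Eif3d, whose product can bind the cap of some mRNAs, had one of 0.43 (SE 0.06), and Eif3j, a loosely bound subunit, one of 0.43 (SE 0.08). The groups did not overlap in any of these 4 genes. Eif3g (0.31), Eif3e (0.23), Eif3s6ip (0.21, now Eif3l) and Eif3i (0.20) were the smallest increases called. Those of Eif3s6ip and Eif3i had adjusted p-values of 0.0301 and 0.0394 from limma, and that of Eif3i was 0.0540 with the rat as a random block. Eif3i was not called without control rat F36, F26, F16 or F22 or the occluded MCA of rat F12, F10, F15 or F33, nor Eif3s6ip without control rat F26 or F4 or the occluded MCA of rat F8 or F33 (adjusted p at most 0.119 and 0.0904 from limma). The Eif3i probe set is annotated to chromosome 2 whereas RefSeq places the gene elsewhere, so it may not read this gene alone. Eif3b, Eif3c and Eif3d were the subunit genes that SAM also called.

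Eif3f, which together with Eif3h encodes the MPN domain subunits of eIF3, was lower. Its values were 8.84, 8.68, 8.76, 8.80 and 8.79 in the occluded MCAs, against 8.90 to 9.08 (median 9.05) in control MCAs. The groups did not overlap (log2 fold change -0.24, SE 0.05, adjusted p = 0.00132 from limma). Eif3h (-0.16, SE 0.07, adjusted p = 0.0676 from limma), Eif3k (-0.09, SE 0.06) and Eif3m (0.07, SE 0.08) were not called.

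The eIF4 group brings together the cap-binding, scaffold and helicase genes. Of 11 measured genes, 6 were higher in occluded than in control MCAs, 2 were lower and 3 were not called. Over all genes 19.2% were higher and 22.9% lower. The median log2 fold change of the 11 genes was 0.19. Eif4a1 encodes the main form of the helicase eIF4A and had values of 10.98, 11.30, 11.25, 11.44 and 11.30 in the occluded MCAs of rats F12, F10, F8, F15 and F33, against 10.02 to 10.30 (median 10.13) in control MCAs. All occluded values lay above all control values (log2 fold change 1.10, SE 0.07, 2.15-fold, adjusted p = 3.04e-09 from limma). Eif4a2, for the second form of the helicase, had values of 10.69, 10.53, 10.52, 10.74 and 10.65 in the occluded MCAs, against 10.52 to 10.66 (median 10.57) in control MCAs. Its groups overlapped (log2 fold change 0.05, SE 0.06, adjusted p = 0.513 from limma). The difference between the changes of the 2 helicase genes was not tested, nor was cross-hybridisation between their probes.

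The cap-binding gene Eif4e rose with a log2 fold change of 0.49 (SE 0.08, 1.40-fold, adjusted p = 6.11e-05 from limma) and did not overlap between the groups. Eif4e2 encodes a cap-binding protein that does not bind eIF4G and can block initiation, and it rose as well (0.34, SE 0.07). SAM did not call Eif4e2. Eif4e3, a further member of the family, had values of 6.55, 6.00, 6.01, 6.22 and 6.20 in the occluded MCAs, against 6.39 to 6.77 (median 6.53) in control MCAs. It was called lower (log2 fold change -0.36, SE 0.10, adjusted p = 0.00565 from limma), although the value of rat F12 fell within the range of the control arrays. Eif4e1b was dim on all arrays (5.21 to 5.88 over the occluded and control MCAs) and was not called.

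The scaffold gene Eif4g1 had a log2 fold change of 0.40 (SE 0.05, adjusted p = 1.31e-05 from limma). Its brightest probe set and a dim one are annotated to opposite strands of chromosome 2, whereas RefSeq places the gene on chromosome 11. The probe set annotated to chromosome 11 gave 0.42 (SE 0.06) and the dim one 0.52 (SE 0.08), so all 3 probe sets were higher. Eif4g2, whose product resembles the scaffold but does not bind eIF4E, had values of 12.18, 12.27, 12.33, 12.39 and 12.21 in the occluded MCAs, against 11.78 to 11.94 (median 11.90) in control MCAs. The groups were separate (log2 fold change 0.39, SE 0.05, adjusted p = 1.34e-05 from limma). Eif4g3 was not called (-0.11, SE 0.07). Of the 2 genes whose products assist the helicase, Eif4h was higher (0.16, SE 0.05) and Eif4b lower (-0.23, SE 0.06), and neither was called by SAM. Eif4h was also not called without control rat F16 or F22 or the occluded MCA of rat F10 or F33 (adjusted p at most 0.0619 from limma).

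Of the 3 measured 4E-BP genes, Eif4ebp1 was higher, Eif4ebp2 lower and Eif4ebp3 not called in the occluded MCAs. Eif4ebp1 had values of 9.45, 9.71, 9.95, 9.62 and 9.46 in the occluded MCAs of rats F12, F10, F8, F15 and F33, against 8.35 to 8.70 (median 8.60) in control MCAs. All occluded values were above all control values (log2 fold change 1.08, SE 0.09, 2.11-fold, adjusted p = 3.34e-08 from limma). Eif4ebp2 had values of 8.96, 8.63, 8.67, 8.74 and 8.55 in the same occluded MCAs, against 8.88 to 9.27 (median 9.10) in control MCAs. It was lower, and the value of rat F12 alone fell within the range of the control arrays (log2 fold change -0.39, SE 0.09, 1.31-fold lower, adjusted p = 0.00150 from limma).

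The third 4E-BP gene, Eif4ebp3, had values of 7.08, 7.09, 7.17, 7.12 and 7.27 in the occluded MCAs, against 6.86 to 7.27 (median 7.10) in control MCAs. The groups overlapped and the gene was not called (log2 fold change 0.05, SE 0.08, adjusted p = 0.693 from limma). A further probe set that names both Ankhd1 and a fusion of it with Eif4ebp3 was left out. Eif4enif1, which encodes the eIF4E transporter 4E-T, had values of 8.91, 9.09, 8.96, 9.12 and 8.87 in the occluded MCAs, against 8.51 to 8.78 (median 8.71) in control MCAs. The groups were separate, with a log2 fold change of 0.30 (SE 0.06, adjusted p = 0.000934 from limma), but SAM did not call the gene. Differences between the changes of the 4E-BP genes were not tested.

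eIF5 triggers GTP hydrolysis by eIF2 at the start codon, eIF5B joins the large subunit, and eIF5A, first described as an initiation factor, mainly helps elongation past difficult peptide bonds. Eif5 was higher (log2 fold change 0.42, SE 0.06, adjusted p = 2.23e-05 from limma), as was Eif5a (0.33, SE 0.07), both with groups that did not overlap. SAM called Eif5 but not Eif5a. Eif5b (0.18, SE 0.08, adjusted p = 0.0811 from limma) was not called. Eif5a2, the second eIF5A gene, had values of 7.20, 7.19, 6.91, 7.10 and 7.56 in the occluded MCAs, against 6.90 to 7.69 (median 7.43) in control MCAs. It was not called against control (-0.16), and its SE of 0.18 was the largest of the 49 members.

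The 3 Argonaute genes did not share a direction. Eif2c2, or Ago2, the Argonaute that can cut its target RNA, had values of 10.53, 10.51, 10.44, 10.77 and 10.53 in the occluded MCAs of rats F12, F10, F8, F15 and F33, against 9.30 to 9.74 (median 9.61) in control MCAs. Eif2c1, or Ago1, had values of 7.50, 7.50, 7.59, 7.22 and 7.60 in these occluded MCAs, against 8.01 to 8.34 (median 8.14) in control MCAs. In both genes the groups were separate, Eif2c2 being higher and Eif2c1 lower. The log2 fold change was 0.99 for Eif2c2 (SE 0.09, adjusted p = 7.97e-08 from limma) and -0.66 for Eif2c1 (SE 0.08, adjusted p = 3.29e-06 from limma). Eif2c3, or Ago3, was at -0.16 (SE 0.06, adjusted p = 0.0464 from limma), which was 0.0542 with the rat as a random block. Its call was kept without non-occluded rat F10 or F19, control rat F26 or F22 or the occluded MCA of rat F12, and was lost without any 1 of the other 12 arrays (adjusted p at most 0.109 from limma).

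Genes that control these factors were counted in 4 lists. Between occluded and control MCAs 19.2% of all genes were called higher and 22.9% lower. Of 8 measured genes for eIF2 kinases, eIF2 phosphatase subunits and their regulators, 2 were higher and 1 lower in occluded than in control MCAs (median log2 fold change 0.14). Ppp1r15a and Ppp1r15b, whose products direct the phosphatase that restores eIF2, had log2 fold changes of 0.89 (SE 0.14) and 0.49 (SE 0.08). Eif2ak4, for the kinase that senses amino acid shortage, was at -0.24 (SE 0.08). The kinase genes Eif2ak1 and Eif2ak3 were not called.

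Of 19 measured genes in the control of eIF4E by mTORC1 and its neighbors, 4 were higher, 2 lower and 13 not called, against the same 19.2% and 22.9% of all genes, and the median log2 fold change was 0.01. Pabpc1, for the poly(A)-binding protein that contacts eIF4G, had a log2 fold change of 0.51 (SE 0.06). Tsc2, for an inhibitor of mTORC1, fell by 0.38 (SE 0.05) and Mknk2, for a kinase of eIF4E, fell by 0.73 (SE 0.15). Ddit4, for another inhibitor of mTORC1, was higher (0.41, SE 0.14), as were Pdcd4, for an inhibitor of eIF4A (0.28, SE 0.09), and Larp1, for an mRNA-binding target of mTORC1 (0.22, SE 0.08). Mtor itself was not called (-0.12, SE 0.06). Of 3 measured genes of alternative initiation and scanning, the helicase gene Ddx3x and the ribosome recycling gene Abce1 were higher (0.29 and 0.69) and Mcts1 was not called.

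In elongation and termination, 4 of 10 measured genes were higher and 1 was lower (median log2 fold change 0.13). The release factor genes Gspt1 and Etf1 had log2 fold changes of 1.05 (SE 0.06) and 0.98 (SE 0.06), and Eef1e1, for an accessory protein of the tRNA synthetase complex, one of 0.74 (SE 0.10). Eef2k, whose product phosphorylates and thereby slows the elongation factor eEF2, fell by 1.26 (SE 0.17). Over the 4 lists, the genes called in non-occluded against control MCAs were Etf1 (0.32, SE 0.05) and Tsc2, which fell by 0.20 (SE 0.05).

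**Figure D3:**
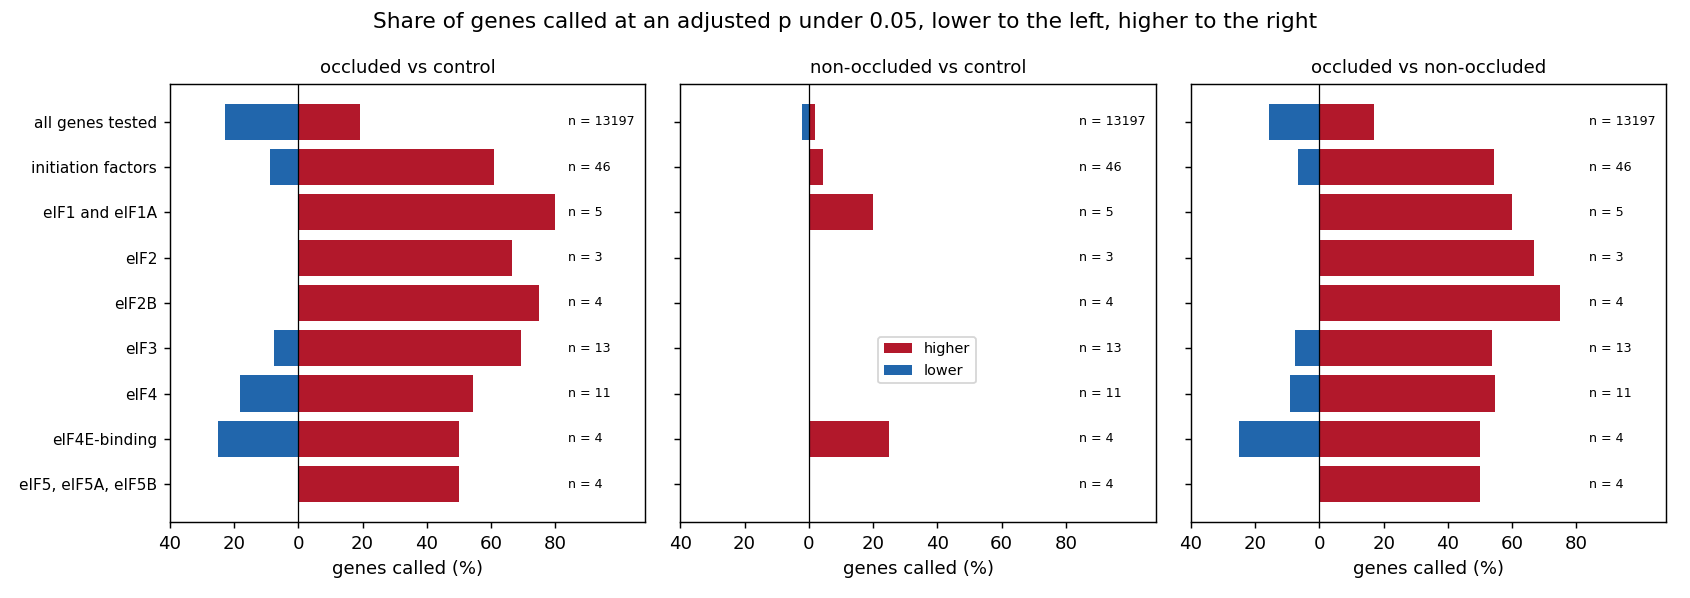
Share of genes in percent that were called higher (red, to the right) or lower (blue, to the left) for all genes tested and for each group of initiation factors, in 3 comparisons, with n genes per group beside the bars. Of the 46 initiation factors 60.9% were higher in occluded than in control MCAs, beside 19.2% of all genes. In occluded against non-occluded MCAs 54.3% were higher, beside 17.1% of all genes. In non-occluded against control MCAs the share was 4.35%, beside 1.79% of all genes.

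Few genes differed between the non-occluded and the control MCAs, among the initiation factors as among all genes. Of 46 genes, 2 were higher and 0 lower by limma, beside 3.91% called over all genes (1.79% higher and 2.12% lower), and 5 (10.9%) had an unadjusted p under 0.05, beside 19.1% of all genes. The groups were separate in 2 higher genes and 0 lower ones, against 1.35% and 1.81% of all genes. SAM called 1 gene higher and 0 lower, beside 0.826% and 0.455% of all genes. The median log2 fold change was 0.05, beside -0.01 over all genes. Eif1a had values of 8.63 to 8.94 (median 8.78) in non-occluded MCAs, against 8.12 to 8.43 (median 8.32) in control MCAs. These groups did not overlap (log2 fold change 0.47, SE 0.08, 1.38-fold, adjusted p = 0.00394 from limma), and the call was kept without any 1 of the 17 arrays.

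Eif4ebp1 had values of 8.78 to 8.98 (median 8.89) in non-occluded MCAs, against 8.35 to 8.70 (median 8.60) in control MCAs. The groups were again separate, with a log2 fold change of 0.33 (SE 0.08, adjusted p = 0.0338 from limma). This call was lost without any 1 of 8 arrays, namely control rats F26, F21 and F4 and non-occluded rats F15, F33, F10, F8 and F19, and the adjusted p reached at most 0.0753. Among the Argonaute genes, Eif2c1 had values of 7.72 to 7.99 (median 7.86) in non-occluded MCAs, against 8.01 to 8.34 (median 8.14) in control MCAs (log2 fold change -0.29, SE 0.08, adjusted p = 0.0361 from limma). The groups were separate, but the call was lost without any 1 of 8 arrays (control rats F26, F22, F21 and F4 and non-occluded rats F12, F15, F8 and F19) and with other scalings of the arrays.

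Eif2s1 (0.10, SE 0.08) and Eif2s2 (0.06, SE 0.07) were not called in non-occluded against control MCAs, nor were Eif4a1 (0.14, SE 0.07) and Eif4ebp2 (0.06, SE 0.08). This comparison shares its 6 control arrays with that of the occluded MCAs, so the values of both are given side by side and were not related to each other.

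Between the occluded and the non-occluded MCAs, 25 of the 46 genes were higher and 3 lower, beside 32.9% of all genes called, 17.1% higher and 15.8% lower. The median log2 fold change was 0.23, beside -0.02 over all genes. Of these genes 18 were higher and 2 lower without overlap, against 11.6% and 8.67% of all genes. With SAM 15 were higher and 1 was lower, beside 8.34% and 4.47% of all genes. By complex, 3 of 5 genes of eIF1 and eIF1A, 2 of 3 of eIF2, 3 of 4 of eIF2B, 7 of 13 of eIF3 and 6 of 11 of eIF4 were higher, and the lower genes were Eif3f, Eif4e3 and Eif4ebp2. Without the occluded MCA of rat F10 the lower genes came to 1 and Eif3f lost its call (adjusted p = 0.0544 from limma).

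Calls of 5 further genes between the arteries ended with single arrays left out. Eif1b needed the non-occluded MCAs of rats F12, F10 and F8 and the occluded MCAs of F15 and F33, and Eif2b2 the non-occluded MCAs of F12, F15, F8 and F19 and the occluded MCAs of F10, F15 and F33 (adjusted p at most 0.0988 and 0.133 from limma). Eif2b5 needed the occluded MCAs of F10 and F15, Eif5a those of F10, F8 and F33, and Eif4e3 those of F10 and F8 and the non-occluded MCAs of F33 and F10 (adjusted p at most 0.0684, 0.0583 and 0.0853 from limma).

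The 5 rats with both arteries allowed each artery to be set against the other of the same animal. In 28 of the 46 genes the occluded MCA was higher in all 5 rats and in 3 it was lower in all 5, beside 21.8% and 22.7% of all genes. The differences of Eif1a were 1.64, 1.64, 1.35, 1.61 and 1.38 in rats F8, F10, F12, F15 and F33, and those of Eif4a1 were 0.96, 0.96, 0.76, 1.13 and 0.97. Each rat therefore showed the increase in both genes. Eif2s2 differed by 0.91, 0.99, 0.77, 1.03 and 0.72 in these rats, and Eif2s1 by 0.67, 0.69, 0.26, 0.83 and 0.60. Rat F12 had the smallest difference in Eif1a, Eif4a1 and Eif2s1.

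Eif4ebp1 differed by 1.12, 0.72, 0.68, 0.67 and 0.48 between the arteries of rats F8, F10, F12, F15 and F33. Eif4ebp2 differed by -0.36, -0.56, -0.36, -0.44 and -0.50 in these rats. The 2 genes thus went in opposite directions in each of the 5 rats. Eif5a2 differed by -0.18, -0.41, -0.41, -0.46 and -0.40, and its call depended on how the pairing was fitted. Its log2 fold change was -0.26 (SE 0.18, adjusted p = 0.301 from limma) over all arrays, -0.29 (SE 0.15, adjusted p = 0.120) with the rat as a random block, and -0.37 (SE 0.06, adjusted p = 0.00211) with the rat as a fixed block, so only the fixed block gave a call. Eif3h (-0.15, SE 0.06, adjusted p = 0.0451 from limma) and Eif3s6ip (0.16, SE 0.06, adjusted p = 0.0464 from limma) were called with the random block only. With the fixed block their adjusted p-values were 0.141 and 0.0590.

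**Figure D4:**
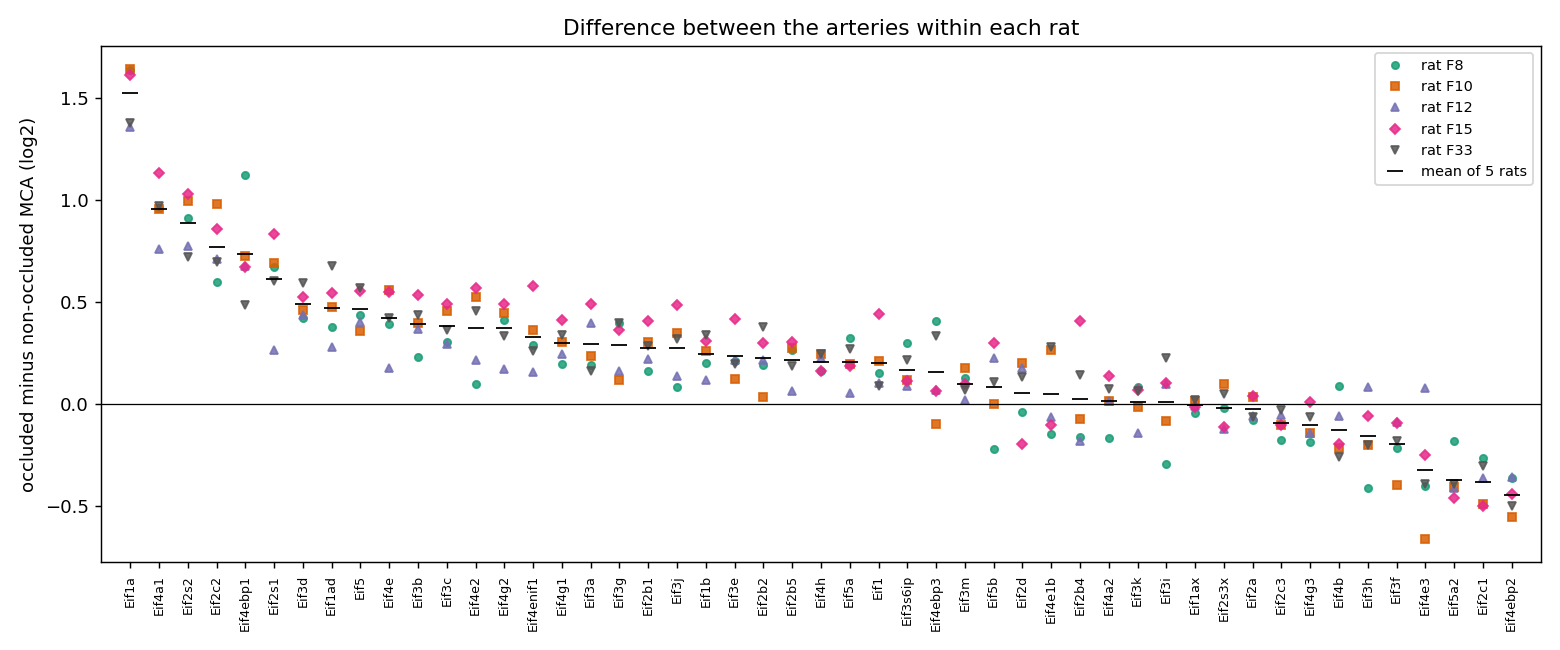
Occluded minus non-occluded MCA on the log2 scale in each of the 5 rats (symbols) and their mean (bar) for the 49 genes, ordered by the mean. All 5 rats lie above 0 for the genes on the left, led by Eif1a at 1.35 to 1.64, and below 0 for Eif3f, Eif5a2, Eif2c1, Eif2c3 and Eif4ebp2.

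The promoters of the members were searched on both strands for CACGTG and TGATGNAAN. CACGTG is the E-box that Myc and other helix-loop-helix factors bind, and TGATGNAAN is the element bound by the stress factor Atf4. Promoters were the 250 bases before and 50 after the start of a gene in RefSeq (build GRCr8), which were at hand for 43 of the 49 genes. CACGTG was in 9 of the 43 (20.9%), beside 9.13% of the 10757 promoters of tested genes and 6.42% of all 33469 promoters. The 9 were Eif1b, Eif3a, Eif3b, Eif3f, Eif4e, Eif4g1, Eif4h, Eif5a and Eif5a2, and 7 of them were called higher in occluded than in control MCAs, as were 26 of the 43. TGATGNAAN was in Eif2s2 and Eif3g (4.65%), beside 2.09% of promoters of tested genes and 3.97% of all promoters. These shares were not tested, and a match of letters is not a site.

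The 250 bases before the start are printed for 3 genes that were higher in the occluded MCAs, Eif4e and Eif4g1 for the cap-binding complex and Eif2s2 for the ternary complex, each with its match in capitals. They lie at chr2:229740503-229740752 on the plus strand for Eif4e, chr11:93746368-93746617 on the minus strand for Eif4g1 and chr3:163855571-163855820 on the minus strand for Eif2s2 (GRCr8).
Eif4e: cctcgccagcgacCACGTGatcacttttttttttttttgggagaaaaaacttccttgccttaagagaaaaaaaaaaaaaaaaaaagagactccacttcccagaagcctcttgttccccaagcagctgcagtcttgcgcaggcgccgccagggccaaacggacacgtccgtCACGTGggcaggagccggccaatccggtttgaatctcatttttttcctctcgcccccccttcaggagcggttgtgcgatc
Eif4g1: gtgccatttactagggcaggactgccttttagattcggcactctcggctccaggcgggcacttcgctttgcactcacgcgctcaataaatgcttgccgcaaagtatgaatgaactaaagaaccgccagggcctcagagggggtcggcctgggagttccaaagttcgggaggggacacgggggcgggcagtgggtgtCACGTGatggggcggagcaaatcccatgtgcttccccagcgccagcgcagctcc
Eif2s2: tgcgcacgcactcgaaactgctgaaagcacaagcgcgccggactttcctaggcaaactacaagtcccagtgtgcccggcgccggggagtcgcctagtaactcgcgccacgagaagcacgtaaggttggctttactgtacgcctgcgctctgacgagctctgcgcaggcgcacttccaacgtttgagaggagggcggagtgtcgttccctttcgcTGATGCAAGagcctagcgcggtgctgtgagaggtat
The Eif4e stretch holds CACGTG at 2 places and that of Eif4g1 at 1, whereas that of Eif2s2 holds TGATGCAAG and no CACGTG. All the printed genes are among those with a match. Eif1a, Eif4a1 and Eif4ebp1, which had the largest increases of the initiation factors, are not.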

How the data were processed

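RNA of 17 MCAs was measured on Affymetrix GeneChip rat gene arrays, 1 array per artery. The authors made the deposited log2 values with Affymetrix Expression Console 1.1.2 (submitters' processing notes), by robust multi-array averaging with quantile normalization. They left out probe sets that in 80% of samples were below the negative controls' median, comparison by comparison. Their fold changes, p-values, scores and q-values per comparison were not used. For the annotation's genome build, the sources used here give no name.

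Of 14143 probe sets, 13809 had a value on all arrays and were tested, and 13197 genes remained after probe sets with several symbols (327) were set aside and the brightest per gene was kept. Groups came from the sample labels. The 17 arrays were fitted together with limma 3.58.1 in R 4.3.3, with 1 mean for each group and 14 residual degrees of freedom, and p-values were adjusted with Benjamini-Hochberg over all probe sets tested. Replicates are separate rats within a group. The labels name the same rat for both arteries in 5 rats, and after removal of group means these pairs correlated at 0.156 to 0.486 (median 0.351), against a median of -0.07 for the 25 other pairs. Arrays have no depth, so their number limits the precision. In simulated data for occluded against control MCAs (13809 probe sets), 67 probe sets were changed 1.3-fold, 67 were changed 1.5-fold and 66 were changed 2-fold. Of these limma recovered 49.3%, 85.1% and 93.9%, and 7.88% of its calls were false. In the real comparison 42.1% of genes were called, a far larger share than was changed here, so these rates need not hold for it.

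The members and gene lists were chosen with earlier results of these data known. Values on each array were planned for the members with the largest changes, the 4E-BP genes, the leading gene of each complex and the eIF4A genes, and some further members were given so after their values were seen. Other pathway genes were named by the 3 smallest p-values per list, beside a few named for their role. Alternatives were other scalings, a stricter threshold, a filter on dim probe sets, the mean of probe sets, the rat as a block, only the groups compared, SAM, and leaving out each array. Tables and figures used Python 3.11.15, pandas 2.3.3 and matplotlib 3.10.9.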

Additional observations from a re-analysis of the deposited data

Results flagged for a closer look

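In 4 of 42 groups of arrays (14 members, 3 groups each), 1 array lay apart from the others by Dixon's test, and chance alone gives about 1 in 20. Over all 49 members it was 16 of 147 groups. Eif2c1 was at 7.22 in the occluded MCA of rat F15, against 7.50 to 7.60 in the other occluded MCAs. Eif2c2 was at 10.77 in that same artery, against 10.44 to 10.53 in the others. Eif2c2 was at 9.53 in the non-occluded MCA of rat F10, against 9.82 to 9.92 in the other non-occluded MCAs. Eif3b was at 8.79 in the non-occluded MCA of rat F19, against 8.96 to 9.04 in the others.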

How the results depend on the processing

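Over the 46 genes, SAM at a q of 0 called 13 higher and 0 lower in occluded against control MCAs, where limma called 28 and 4. It called 1 higher in non-occluded against control MCAs (limma 2), and 15 higher and 1 lower between the arteries (limma 25 and 3). An adjusted p under 0.01 left 1 higher in non-occluded against control MCAs and 1 lower between the arteries. Without any 1 array the counts were 25 to 28 higher and 4 to 5 lower for occluded against control, 1 to 2 higher and 0 lower for non-occluded against control, and 22 to 25 higher and 1 to 4 lower between the arteries. With the rat as a random block the counts were 27 and 4, 2 and 0, and 26 and 4, and as a fixed block 25 and 4 between the arteries. The fixed block could not be fitted against control, since each control rat gave 1 array. Calls that changed with the block are given beside their genes, and no other call changed. The sign changed only in members that were not called in the comparison. Eif4enif1 and Eif4a2 are given as examples, and other members with changes near 0 also changed sign. Eif4enif1 was at 0.0068 in non-occluded against control MCAs when arrays were centred on their medians. Eif4a2 between the arteries was at -0.0109 with that centring, -0.0095 without the non-occluded MCA of rat F10, and -0.0057 and -0.0190 without the occluded MCA of rats F12 and F15, with a range of -0.0190 to 0.0367 without any 1 array. Of the 35 members called in occluded against control MCAs, 29 were kept at an adjusted p under 0.01 and 15 with SAM, and 0 changed direction. Over all genes, 45.7% of calls in non-occluded against control MCAs were higher, which was 64.7% with centring on the medians. The causes were not tested.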
